A study of Homo sapiens with 10 samples.

Results

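RNA levels of 41 hypoxia and glycolysis genes were followed across 10 RNA-seq libraries of A549 cells. A549 is an established human lung adenocarcinoma line. The genes were taken by name from the count table, and all 41 were found among its 33551 rows. The study holds 5 A549 lines. They are wild type (WT), a line with the label of an ABCA3 knockout (KO), and 1 line each for the missense variants L101P, E292V and E690K of ABCA3. ABCA3 encodes the lipid transporter of lamellar bodies, the surfactant stores of alveolar type 2 cells. Each line was sequenced untreated and after overnight exposure, at a multiplicity of infection of 20, to a VSVG-coated lentiviral vector that carries ABCA3 fused to GFP. All lines were grown in DMEM with fetal bovine serum under humidified air with carbon dioxide, and the labels name no low-oxygen sample. Each line gave 1 untreated and 1 transduced library, and each genotype is 1 line, so differences of genotype and other differences between the lines cannot be told apart. Error in the line comparisons is the departure of libraries from additive effects of line and vector, which may be technical.

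Cells sense oxygen through prolyl hydroxylases (EGLN1, EGLN3), which mark the alpha subunits of hypoxia-inducible factor (HIF1A and EPAS1, also called HIF-2 alpha) for degradation while oxygen is present. When oxygen falls, the alpha subunits persist, pair with ARNT and bind a short DNA element near target genes. Those targets include secreted factors such as VEGFA and ADM, pH-regulating carbonic anhydrases, mitophagy receptors, and the glucose transporters and enzymes that turn glucose into lactate. The control of the alpha subunits is mainly on the protein, which RNA counts do not measure.

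Several of the genes described below carry the core letters of that element close to their transcription start. The 250 bases before each RefSeq start (GRCh38.p14) were searched for ACGTG and GCGTG on both strands, so that matches on the opposite strand read CACGT and CACGC. Of the 41 genes, 37 had a window in the table, and 33 of these 37 (89.2%) held a match in at least 1 of their windows, against 47.4% of the 27305 genes in the table. Counted by window, 62.3% of 69 windows held a match against 43.2% of 35116. The windows of these genes were also richer in G and C, with a median of 68.4% against 58%, and no allowance was made for that. Among the genes that differed in at least 1 comparison below, 13 of 16 with a window held a match. Among the others 20 of 21 did. The 6 windows shown are those of EPAS1, HK2, DDIT4, SLC16A3 and ANGPTL4, each called in a comparison below, and of TPI1, a flat glycolytic gene. Only windows with a match and few exonic bases were shown, so their matches are there by selection. The windows of SLC2A1, EGLN3 and PKM, which were also called, held 0 matches. They lie at chr2:46297157-46297406 (EPAS1), chr2:74834920-74835169 (HK2), chr10:72273674-72273923 (DDIT4), chr12:6867855-6868104 (TPI1), chr17:82228792-82229041 (SLC16A3) and chr19:8363905-8364154 (ANGPTL4), all on the plus strand and read 5′ to 3′. HK2, TPI1 and SLC16A3 have other windows besides, with 3 matches in HK2, 0 in TPI1 and 0 to 3 in SLC16A3. Capitals mark the matches.
EPAS1: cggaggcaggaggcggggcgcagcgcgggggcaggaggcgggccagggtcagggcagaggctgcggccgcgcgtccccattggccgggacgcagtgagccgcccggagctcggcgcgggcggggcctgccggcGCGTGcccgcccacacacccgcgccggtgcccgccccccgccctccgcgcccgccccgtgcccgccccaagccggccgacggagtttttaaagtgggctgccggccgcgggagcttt
HK2: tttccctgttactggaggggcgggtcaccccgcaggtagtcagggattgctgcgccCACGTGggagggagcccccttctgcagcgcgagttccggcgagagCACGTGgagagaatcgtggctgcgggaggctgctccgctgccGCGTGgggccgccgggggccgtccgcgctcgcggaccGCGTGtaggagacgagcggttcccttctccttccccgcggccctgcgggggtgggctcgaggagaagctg
DDIT4: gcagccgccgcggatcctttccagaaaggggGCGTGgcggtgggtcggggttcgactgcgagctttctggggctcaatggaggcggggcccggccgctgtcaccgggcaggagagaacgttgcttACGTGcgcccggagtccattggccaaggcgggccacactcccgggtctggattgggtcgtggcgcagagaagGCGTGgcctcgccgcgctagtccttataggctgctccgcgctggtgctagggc
TPI1: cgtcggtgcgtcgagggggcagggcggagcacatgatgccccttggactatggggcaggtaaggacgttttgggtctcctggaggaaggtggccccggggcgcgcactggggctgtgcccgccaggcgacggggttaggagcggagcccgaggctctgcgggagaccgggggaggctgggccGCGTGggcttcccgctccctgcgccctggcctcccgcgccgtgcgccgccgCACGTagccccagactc
SLC16A3: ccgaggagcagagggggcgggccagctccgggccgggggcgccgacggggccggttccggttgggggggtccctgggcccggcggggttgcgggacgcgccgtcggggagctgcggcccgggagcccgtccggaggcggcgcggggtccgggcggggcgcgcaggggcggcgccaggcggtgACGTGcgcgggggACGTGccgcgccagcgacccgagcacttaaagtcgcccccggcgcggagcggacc
ANGPTL4: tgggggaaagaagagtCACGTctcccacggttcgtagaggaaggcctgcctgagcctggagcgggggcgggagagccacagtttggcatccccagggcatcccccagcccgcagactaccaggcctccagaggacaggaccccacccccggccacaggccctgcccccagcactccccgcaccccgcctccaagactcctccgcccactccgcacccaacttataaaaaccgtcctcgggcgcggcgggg
EPAS1 and ANGPTL4 held 1 match each, TPI1 and SLC16A3 held 2 and DDIT4 held 3. The HK2 window held 6 overlapping matches, because each of its 2 CACGTG palindromes counts once per strand. A match is a run of letters and says nothing of binding in these cells.

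The 41 genes took 1.82% to 2.05% of each library's counts, which summed to between 59430095 and 96811421. Levels are CPM, counts brought to a common library size with edgeR's TMM factors. At 10 CPM or more in every library, where 31 of the 41 genes stood, the widest 95% Wilson half-interval on read pairs was 10.4% of the level. HK2, CA9, ANKRD37, ALDOA and ALDOC stayed under 3 CPM in every library, where it reached 69.0%. The label check went against the KO pair. ABCA3 stood at 600.3 CPM in the library labelled KO and untreated and at 26.0 CPM in the library labelled KO and transduced, and EGFP at 37.9 and 0.0497 CPM. EGFP was also counted in the untreated libraries of the other lines, from 1.01 CPM in L101P to 69.7 CPM in WT. ABCA3 in the untreated and the transduced library was 355.8 and 602.2 CPM in WT and 1150.7 and 922.1 CPM in L101P. It was 964.9 and 1021 CPM in E292V and 900.3 and 993.9 CPM in E690K. In the L101P pair, too, ABCA3 was thus lower in the transduced library. Of the labelled cell type's markers, the epithelial genes EPCAM, CDH1, KRT8, KRT18 and KRT19 summed to 5365 to 11798 CPM. The 8 alveolar type 2 markers summed to only 1.42 to 2.27 CPM, the 5 endothelial markers to 0.104 to 1.16 CPM, the 6 fibroblast markers to 16.5 to 119.6 CPM and the 5 immune markers to 20.4 to 45.2 CPM, with CD3E at 0 in all libraries.

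The first question was whether the 5 lines differ in these genes. A gene is called where the adjusted p of edgeR's quasi-likelihood test, taken over the 17978 genes tested, is under 0.05. Of the 41 genes, 18 differed among the 5 lines, where 13.0% of all genes tested did. These genes are more abundant than most, with a median level of 59.9 CPM against 12.5 CPM. Among genes averaging 10 CPM or more, 17 of 33 differed, against 17.7% of 9460. The 41 genes were chosen with earlier results of these data known, so these shares are no test of the set. The 18 were EPAS1, EGLN1 and EGLN3; CA12, ADM, ANGPTL4, STC2, VEGFA and NDRG1; and, of the glycolytic genes, SLC2A1, SLC2A3, HK1, HK2, PFKP, ENO2, PKM, LDHA and SLC16A3. Cell type markers differed among the lines too: 4 of 5 epithelial markers and 2 of 4 fibroblast markers tested were called. EPCAM was higher than WT in the KO-labelled line (log2 fold change 1.25), KRT19 in L101P (1.24) and E690K (1.03), and COL1A1 in E292V (1.42, adjusted p = 0.0214). KRT8 in L101P (0.55) and EPCAM (0.71) and LUM (1.02) in E690K were also called higher. CDH1 was not called, at 25.0 and 21.8 CPM in E690K against 27.5 and 30.3 in WT. In E292V 0 of the 5 epithelial markers were called, with a median log2 fold change of -0.20. The part of these markers in the differences below was not tested.

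Against WT, the KO-labelled line had 2 genes called higher (0.807% of all genes tested were) and 2 called lower (0.990%). L101P had 5 higher (2.33%) and 3 lower (1.61%), and E690K had 6 higher (3.05%) and 2 lower (2.33%). E292V had 0 higher (0.295%) and 2 lower (0.756%). In E292V, 5 of the 41 genes were higher and 10 lower at an unadjusted p under 0.05, where 10.3% of all genes tested passed in either direction. DESeq2 called 2 higher and 7 lower there, and 432 of all 17978 genes. Each of these 22 called differences had 1 sign throughout, whether taken from untreated or from transduced libraries alone. The calls were made on these same libraries, with the disagreement between them as error, so this is no separate support. The median absolute log2 fold change lay between 0.17 and 0.20 for the 41 genes over the 4 contrasts, and between 0.15 and 0.20 for all genes tested. It was 0.19 against 0.15 in E292V and 0.17 against 0.20 in E690K. The sets were not matched by level here. The median signed change of the 41 genes lay between -0.04 and 0.01. The 4 contrasts share the WT libraries.

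**Figure D1:**
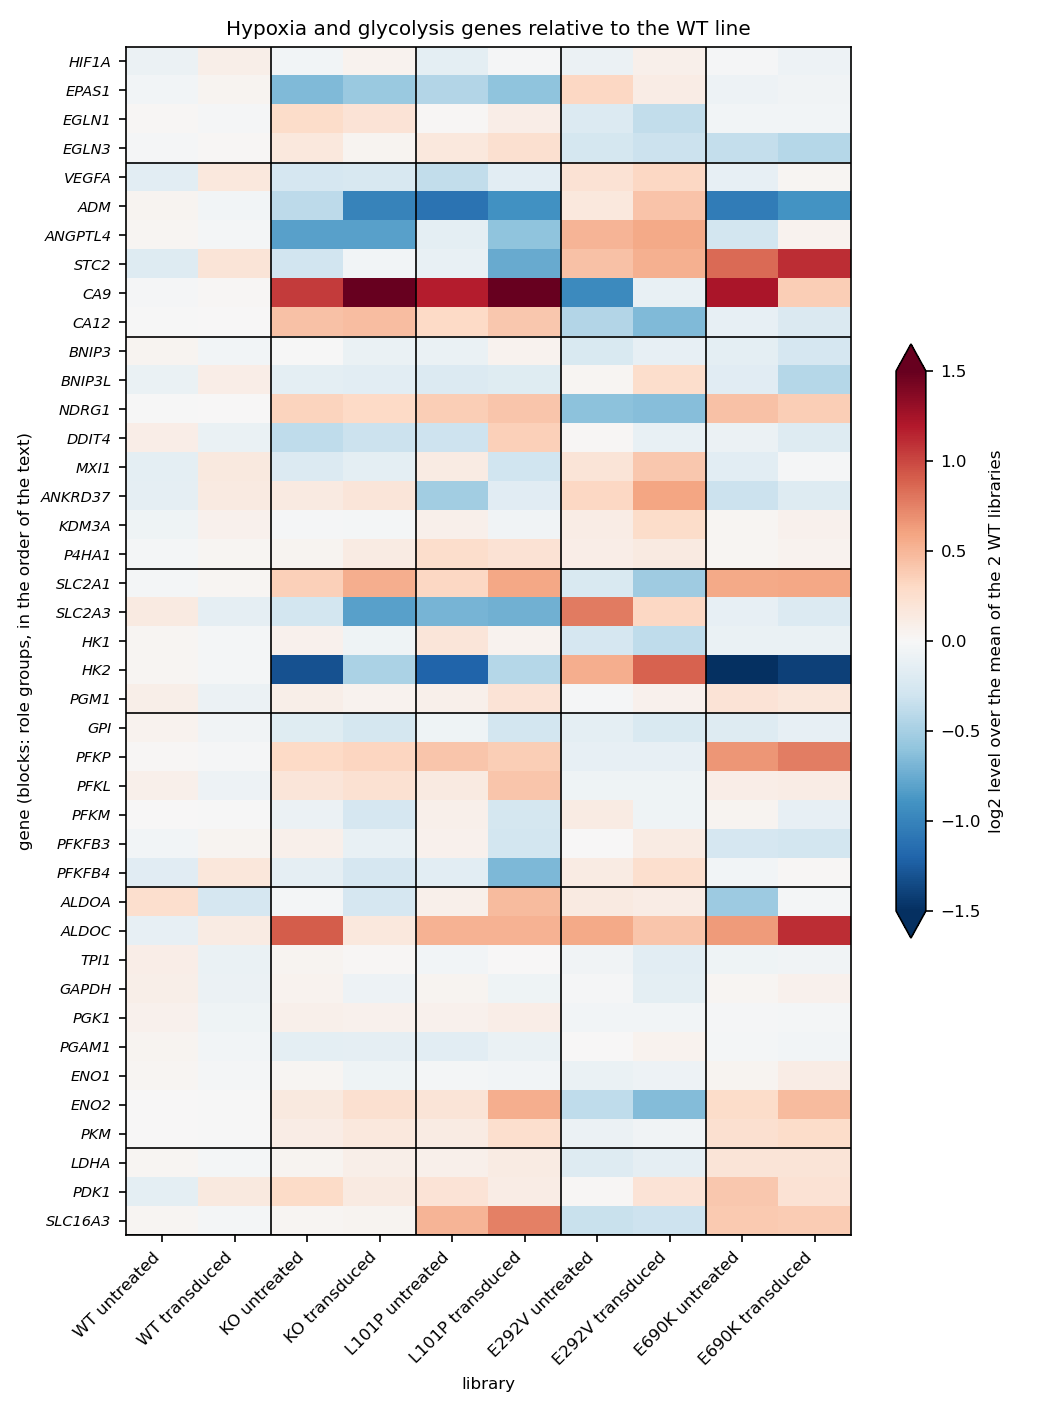
Log2 level of each of the 41 genes (rows, in blocks by role) in each of the 10 libraries (columns), relative to the mean of the 2 WT libraries. Colour ends at 1.5 in either direction. NDRG1, CA12, ENO2 and SLC16A3 are blue in E292V and mostly red elsewhere, EPAS1, ADM and SLC2A3 show the opposite, and TPI1, GAPDH, PGK1, PGAM1 and ENO1 stay pale.

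E292V stood at an end of the order more often than the other lines. It had the lowest line mean for 16 of the 41 genes (39.0%, against 24.4% of all genes tested) and the highest for 14 (34.1%, against 27.1%). Of the 18 genes that differed among the lines, 10 were lowest in E292V (55.6%, against 43.9% of the 2337 genes that differed) and 6 were highest there (33.3% against 31.5%). WT held neither end for any of the 18. The 10 genes lowest in E292V were EGLN1, CA12, NDRG1, SLC2A1, HK1, PFKP, ENO2, PKM, LDHA and SLC16A3. Apart from the oxygen sensor EGLN1, the carbonic anhydrase CA12 and the stress-responsive NDRG1, they carry glucose in, run glycolysis or carry lactate out. Of the 10, only CA12 and NDRG1 were called lower than WT in E292V. The 6 genes highest in E292V were EPAS1, VEGFA, ADM, ANGPTL4, SLC2A3 and HK2, and none was called higher than WT there. Of these, SLC2A3 and HK2 also serve glucose entry and first phosphorylation.

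HIF1A RNA was even, and EPAS1 RNA was not. HIF1A, the alpha subunit found in most cell types, stood at 225 and 255 CPM in WT, 232 and 249 in the KO-labelled line, 216 and 236 in L101P, 225 and 252 in E292V, and 237 and 227 in E690K; within each pair the untreated library is given before the transduced one, here and below. The 5 line means lay within 0.09 on the log2 scale (adjusted p = 0.861 among lines). EPAS1 (ENSG00000116016.13, GRCh38 chromosome 2, 46293667 to 46386703), the alpha subunit best known from endothelium and lung, stood at 192 and 201 CPM in WT, 125 and 134 in the KO-labelled line, 145 and 129.7 in L101P, 243 and 213 in E292V, and 186 and 189 in E690K. The KO-labelled and L101P libraries were all below the other 6, with no overlap. Here and below, such groups of libraries were formed from the levels themselves, gene by gene. A lack of overlap between them is thus a description and no test. EPAS1 was lower than WT in the KO-labelled line, with a log2 fold change of -0.60 ± 0.09 (adjusted p = 0.00515), and in L101P, with -0.52 ± 0.09 (adjusted p = 0.0078), where ± is the standard error. The log2 fold change was 0.21 ± 0.09 (adjusted p = 0.399) in E292V and -0.07 ± 0.09 (adjusted p = 0.762) in E690K, neither called. Per transcript length, EPAS1 made up 27.5% of the HIF1A and EPAS1 total in the library labelled KO and untreated and 43.2% in the untreated E292V library, so HIF1A was the larger of the pair in all 10 libraries.

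EGLN1, the main oxygen sensor, stood at 205 and 199 CPM in WT, 244 and 233 in the KO-labelled line, 205 and 215 in L101P, 176 and 157 in E292V, and 196 and 196 in E690K. It differed among the lines (adjusted p = 0.00581), highest in the KO-labelled line and lowest in E292V, but no single contrast with WT was called. EGLN3, the sensor that HIF itself induces, stood at 12.3 and 12.5 CPM in WT, 13.8 and 12.8 in the KO-labelled line, 13.8 and 14.7 in L101P, 10.4 and 9.95 in E292V, and 9.71 and 9.20 in E690K. It also differed among the lines (adjusted p = 0.0162), with the KO-labelled, WT and L101P libraries all above the E292V and E690K libraries. The EGLN1 difference was no longer called without the KO or the E292V pair, and the EGLN3 difference without the E292V or the E690K pair.

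Of the 6 secreted factors and surface carbonic anhydrases, 5 differed among the lines, and they did not move as a group. CA12 (ENSG00000074410.13, chromosome 15, 63321378 to 63382161), a membrane enzyme that hydrates carbon dioxide at the cell surface, was the most abundant of them per length at 162 to 339.8 TPM. Its levels were 523 and 524 CPM in WT, 712 and 723 in the KO-labelled line, 645 and 696 in L101P, 385 and 332 in E292V, and 481 and 450.2 in E690K. The KO-labelled and L101P libraries were above WT and the E292V libraries below, with the E690K libraries between E292V and WT. The log2 fold change of CA12 against WT was 0.45 ± 0.08 (adjusted p = 0.018) in the KO-labelled line, 0.36 ± 0.08 (adjusted p = 0.0344) in L101P and -0.55 ± 0.08 (adjusted p = 0.0103) in E292V, all called. The call in the KO-labelled line was lost without the E690K pair, and that in L101P without the KO or the E690K pair. CA9, its relative and a common laboratory marker of hypoxia, was near the bottom of the range at 0.210 to 1.29 CPM. It was not called in any comparison, and 38.5% of its exonic bases also lie in the oppositely transcribed gene ARHGEF39, with strand use not stated.

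ADM encodes adrenomedullin, a peptide that widens vessels. It stood at 27.5 and 26.0 CPM in WT, 20.3 and 13.4 in the KO-labelled line, 12.4 and 14.2 in L101P, 29.7 and 35.9 in E292V, and 12.9 and 14.4 in E690K. All L101P and E690K libraries were below 15 CPM and all WT and E292V libraries above 25 CPM. ADM was lower than WT in L101P, with a log2 fold change of -1.002 ± 0.17 (adjusted p = 0.00882), and in E690K, with -0.97 ± 0.17 (adjusted p = 0.00631). The KO-labelled pair straddled these groups, with only its untreated library between them, and its difference of -0.67 ± 0.17 (adjusted p = 0.0733) was not called.

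ANGPTL4, a secreted inhibitor of lipoprotein lipase, stood at 19.9 and 19.0 CPM in WT, 11.1 and 11 in the KO-labelled line, 17.5 and 12.7 in L101P, 27.7 and 28.7 in E292V, and 16.1 and 20.2 in E690K. It was lower in the KO-labelled line, with a log2 fold change of -0.81 ± 0.15 (adjusted p = 0.0192), and that pair was below all other libraries. STC2, a secreted glycoprotein of the stanniocalcin family, stood at 12.5 and 16.3 CPM in WT, 11.7 and 13.9 in the KO-labelled line, 13.2 and 8.48 in L101P, 19.4 and 20.7 in E292V, and 25.8 and 30.9 in E690K. It was higher in E690K, with a log2 fold change of 0.98 ± 0.19 (adjusted p = 0.011), 1.97-fold, and the E690K libraries were the highest of the 10. VEGFA, the angiogenic growth factor, differed among the lines (adjusted p = 0.0112) at 29.9 and 37.4 CPM in WT, 28.1 and 28.2 in the KO-labelled line, 25.8 and 29.98 in L101P, 38.9 and 41.5 in E292V, and 30.6 and 34.0 in E690K. Both E292V libraries were above the other 8, but no contrast of a line with WT was called, and without the E292V pair VEGFA was not called.

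**Figure D2:**
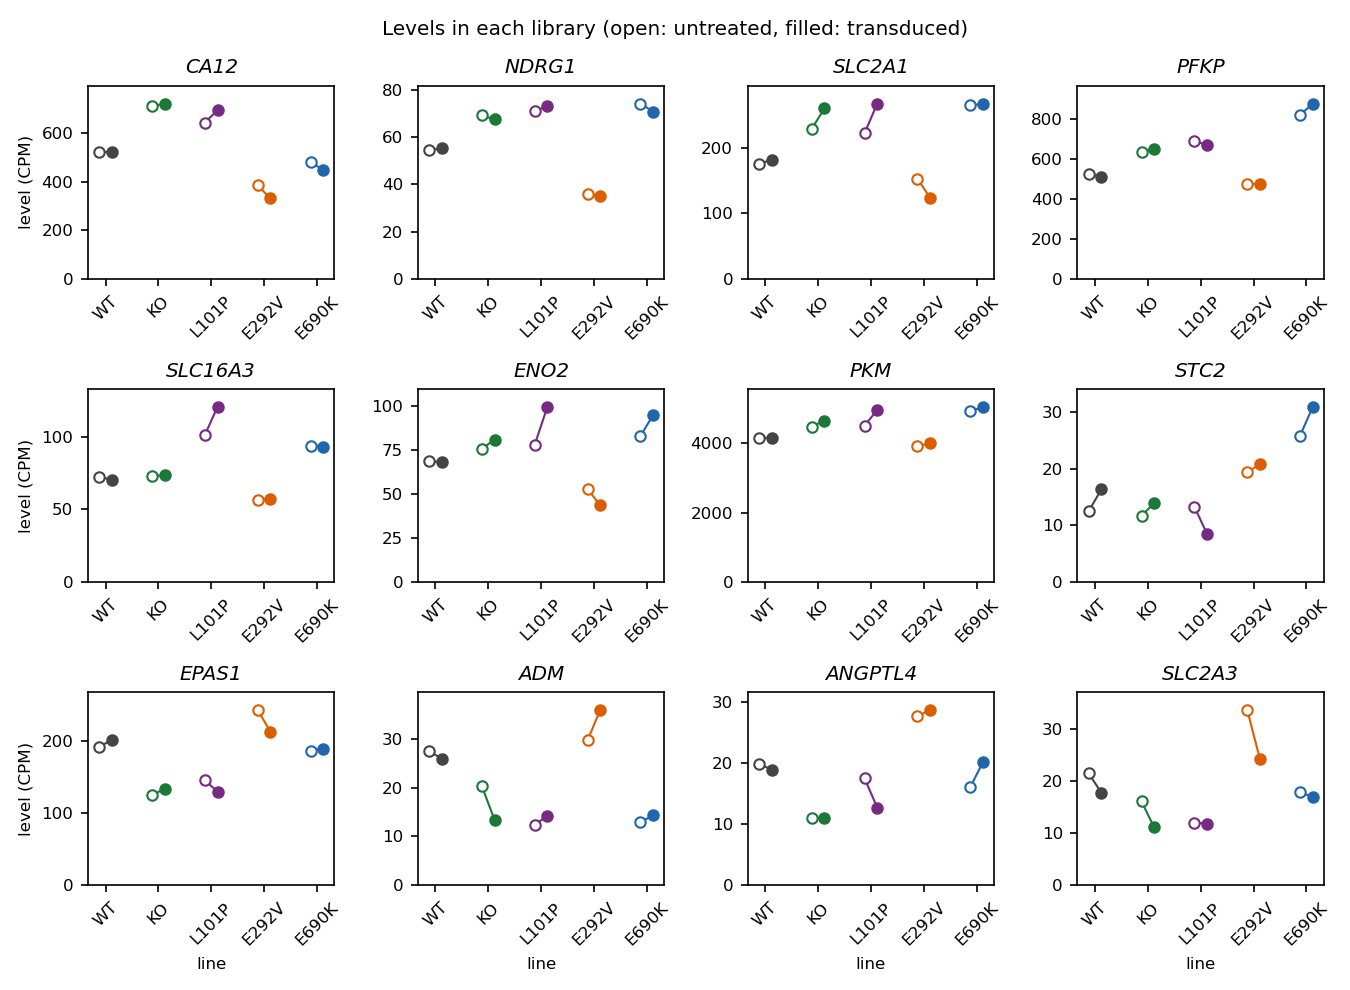
Level in CPM (vertical axis, linear from 0) of 12 genes in each library, by line (horizontal axis). Open circles are untreated and filled circles transduced libraries, joined by a line within each pair. CA12 and NDRG1 pairs are nearly level while the lines differ, and STC2 and ENO2 spread within the L101P pair.

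NDRG1 was the only one of the 8 mitophagy and other intracellular hypoxia targets to differ among the lines. NDRG1 responds to hypoxia and other stress and is used as a hypoxia marker. It stood at 54.4 and 55.2 CPM in WT, 69.1 and 67.4 in the KO-labelled line, 70.8 and 73.2 in L101P, 35.7 and 35.2 in E292V, and 74.1 and 70.7 in E690K. The E292V pair was lowest, WT was next, and the KO-labelled, L101P and E690K libraries were all above 65 CPM, with no overlap between these 3 levels. Its log2 fold change against WT was -0.63 ± 0.08 (adjusted p = 0.00515) in E292V, 0.39 ± 0.08 (adjusted p = 0.0144) in L101P and 0.40 ± 0.08 (adjusted p = 0.00887) in E690K, all called. In the KO-labelled line it was 0.32 ± 0.08 (adjusted p = 0.0562), which was not called.

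The other 7 were not called among the lines. P4HA1, a collagen prolyl hydroxylase subunit with a per-length level of 38.1 to 47.9 TPM, about that of DDIT4 by median over libraries, stood at 33.6 and 35.2 CPM in WT, 35.3 and 37.4 in the KO-labelled line, 41.2 and 40.1 in L101P, 36.8 and 37.9 in E292V, and 35.1 and 35.7 in E690K (adjusted p = 0.303). The mitophagy receptors BNIP3 and BNIP3L ranged over 43.3 to 53.4 CPM and 34.1 to 55.2 CPM, with adjusted p = 0.385 and 0.0799 among lines. The MYC antagonist MXI1 ranged over 7.29 to 11.9 CPM, the histone demethylase KDM3A over 42.9 to 54.3 CPM, the mTORC1 inhibitor DDIT4 over 19.7 to 32.9 CPM and ANKRD37 over 0.620 to 1.34 CPM. DDIT4 shares 41.2% of its exonic bases with an antisense row that held 0 counts, and ANKRD37 shares 35.2% with UFSP2 on the opposite strand.

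Glucose entry differed in both transporters, in opposite directions. SLC2A1 (GLUT1; ENSG00000117394.21, chromosome 1, 42925375 to 42959176) is the broad basal transporter and stood at 176 and 182 CPM in WT, 229 and 261 in the KO-labelled line, 223 and 268 in L101P, 153 and 124 in E292V, and 265 and 268 in E690K. The KO-labelled, L101P and E690K libraries were all above 220 CPM, and the WT and E292V libraries all below 185 CPM. SLC2A1 was higher in E690K by 0.57 ± 0.11 (adjusted p = 0.0104) and in L101P by 0.45 ± 0.11 (adjusted p = 0.0413) on the log2 scale. In the KO-labelled line the difference was 0.45 ± 0.11 (adjusted p = 0.064) and in E292V -0.37 ± 0.11 (adjusted p = 0.192), neither called. The L101P call was lost with the KO labels exchanged and without the KO or the E690K pair.

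SLC2A3 (GLUT3), a transporter of higher glucose affinity, stood at 21.4 and 17.7 CPM in WT, 16.1 and 11.1 in the KO-labelled line, 12 and 11.8 in L101P, 33.6 and 24.2 in E292V, and 17.9 and 16.9 in E690K. The E292V libraries were the highest and the L101P libraries near the lowest. SLC2A3 was lower in L101P, with a log2 fold change of -0.70 ± 0.14 (adjusted p = 0.0144), a call that was lost with the KO labels exchanged. Per length, SLC2A1 made up 85.6% to 96.8% of the pair, with its smallest share in E292V.

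HK1, the hexokinase of most tissues, differed among the lines (adjusted p = 0.0118) at 96.2 and 92.8 CPM in WT, 98.9 and 90.2 in the KO-labelled line, 107 and 98.0 in L101P, 79.1 and 72.5 in E292V, and 87.8 and 88.2 in E690K, with the E292V libraries below the rest. HK2, the inducible hexokinase, was rare: HK1 made up 96.6% to 99.7% of the pair per length. HK2 had 114 and 106 counts in WT and 20 and 38 in E690K, with a log2 fold change of -1.84 ± 0.39 (adjusted p = 0.0165) between them, and 156 and 233 in E292V. That call was lost with the KO labels exchanged. PGM1, which links glycogen to glucose 6-phosphate, was flat at 53.1 to 65.1 CPM.

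PFKP, the platelet-type phosphofructokinase, was the gene of the 6 hexose phosphate and phosphofructokinase steps that differed among the lines. Phosphofructokinase commits sugar to glycolysis. PFKP (ENSG00000067057.16, chromosome 10, 3066333 to 3137712) stood at 527 and 511 CPM in WT, 637 and 651 in the KO-labelled line, 693 and 670.0 in L101P, 476 and 478 in E292V, and 823 and 880.0 in E690K. The E690K libraries were the highest, the KO-labelled and L101P libraries came next, and WT and E292V were lowest, with no overlap between these 3 levels. PFKP was higher in E690K by 0.71 ± 0.07 (adjusted p = 0.000224), in L101P by 0.39 ± 0.07 (adjusted p = 0.0107) and in the KO-labelled line by 0.31 ± 0.07 (adjusted p = 0.0478) on the log2 scale. The call in the KO-labelled line was at the threshold: it was lost with a minimum of 10 counts in every library, with the KO labels exchanged, and without the E292V or the E690K pair. Per length, PFKP made up 85.5% to 91.7% of the PFKP, PFKL and PFKM total, highest in E690K.

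The liver and muscle isoforms PFKL and PFKM were not called, at 70.9 to 99.6 CPM and 48.6 to 63.8 CPM. PFKFB3, which makes the activator of phosphofructokinase, ranged over 591 to 779.6 CPM, and its relative PFKFB4 over 6.03 to 11.4 CPM. GPI, the isomerase before phosphofructokinase, ranged over 726 to 917 CPM. Their adjusted p among lines lay between 0.0895 for PFKL and 0.473 for PFKM.

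**Figure D3:**
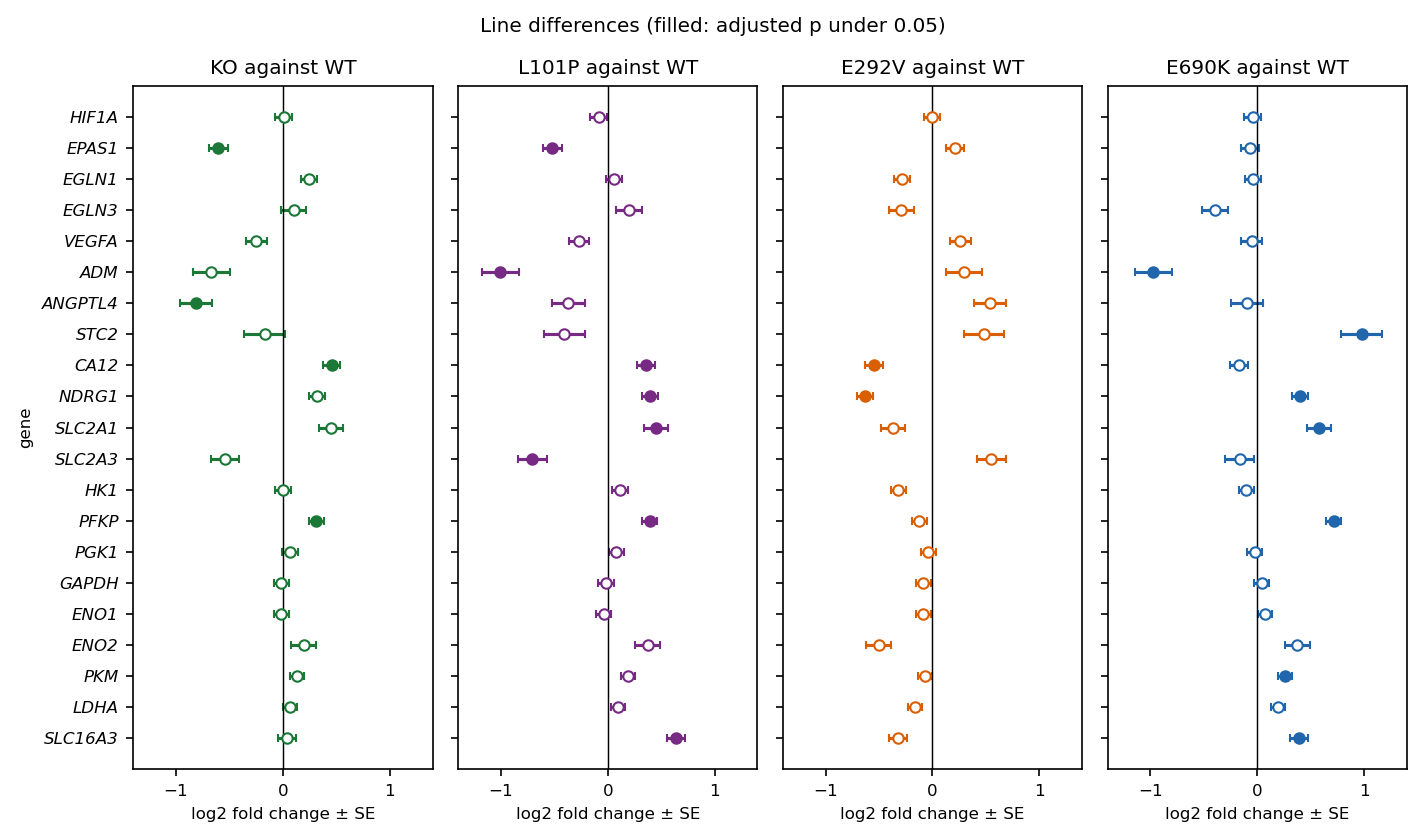
Log2 fold change against WT with its standard error (horizontal axis) of 21 genes in the KO-labelled, L101P, E292V and E690K lines, from the edgeR fit over 10 libraries. Filled points passed an adjusted p of 0.05. HIF1A, PGK1, GAPDH and ENO1 lie near 0 in all 4 panels, while NDRG1 and SLC16A3 lie right of 0 in L101P and E690K and left of it in E292V.

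Lower glycolysis held the most abundant of these genes and several that varied little between lines. GAPDH, the highest of the 41 genes per length at 3937 to 4573 TPM, stood at 3889 and 3428 CPM in WT, 3777 and 3462 in the KO-labelled line, 3747 and 3483 in L101P, 3598 and 3286 in E292V, and 3714 and 3805 in E690K (adjusted p = 0.721 among lines). The line means of TPI1, GAPDH, PGK1, PGAM1 and ENO1 spanned 0.13, 0.13, 0.12, 0.16 and 0.16 on the log2 scale, and none was called in any comparison. Their levels ranged over 1292 to 1552 CPM (TPI1), 659 to 739 CPM (PGK1), 195 to 224 CPM (PGAM1) and 2800 to 3222 CPM (ENO1). Without the aldolases, the 12 genes of the chain from GPI to LDHA together took 1.57% to 1.80% of the counts. This share was lowest in the transduced E292V library and highest in the transduced E690K library.

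ENO2 and PKM were the exceptions in this block. ENO2, the enolase named for neurons, stood at 69.1 and 68.1 CPM in WT, 75.9 and 81.1 in the KO-labelled line, 78.2 and 99.8 in L101P, 52.8 and 43.8 in E292V, and 83.1 and 95.1 in E690K. The E292V libraries were the lowest and the transduced L101P and E690K libraries the highest, and ENO2 differed among the lines (adjusted p = 0.00175) without a called contrast against WT. Per length ENO1 still made up 95.9% to 98.1% of the enolase pair. PKM, the pyruvate kinase of most proliferating cells, stood at 4161 and 4147 CPM in WT, 4477 and 4645 in the KO-labelled line, 4506 and 4952 in L101P, 3904 and 4001 in E292V, and 4913 and 5048 in E690K. It was higher in E690K by 0.26 ± 0.07 (adjusted p = 0.0382) on the log2 scale, a call that was lost with the KO labels exchanged and without the KO or the E292V pair.

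The aldolases could not be read. The table held 2 rows named for ALDOA, at 0.977 to 1.98 CPM and at 27.8 to 35.4 CPM. GENCODE 29 holds an overlapping gene that shares 42.3% of ALDOA's 3916 exonic bases, and the table does not say which row is which. The values plotted for ALDOA are those of the former row and were not called. ALDOC ranged over 0.671 to 1.58 CPM and was not called.

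LDHA, which reduces pyruvate to lactate, was the highest of the last block per length at 988 to 1241 TPM. It stood at 1961 and 1896 CPM in WT, 1983 and 2052 in the KO-labelled line, 2027 and 2095 in L101P, 1692 and 1749 in E292V, and 2197 and 2209 in E690K. The E292V libraries were below all others and the E690K libraries above all others, and LDHA differed among the lines (adjusted p = 0.0249). That call was lost with the KO labels exchanged and without the E292V or the E690K pair. LDHA made up 34.4% to 45.2% of the LDHA and LDHB total per length.

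SLC16A3 (MCT4; ENSG00000141526.16, chromosome 17, 82228397 to 82261129), the lactate exporter of glycolytic cells, stood at 72.6 and 70.3 CPM in WT, 72.9 and 73.6 in the KO-labelled line, 101.3 and 121 in L101P, 56.6 and 57.5 in E292V, and 94.0 and 93.2 in E690K. The L101P libraries were the highest, E690K next, WT and the KO-labelled line in the middle and E292V lowest, with no overlap between these 4 levels. SLC16A3 was higher in L101P by 0.63 ± 0.08 (adjusted p = 0.00216), 1.55-fold, and in E690K by 0.39 ± 0.08 (adjusted p = 0.0193), 1.31-fold on the linear scale. In E292V it was -0.32 ± 0.08 (adjusted p = 0.113), which was not called. Its share of the SLC16A3 and SLC16A1 total per length went from 29.4% in the transduced E292V library to 54.2% in the transduced L101P library. PDK1, which restrains pyruvate entry into mitochondria, was low and flat at 3.75 to 5.46 CPM.

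**Figure D4:**
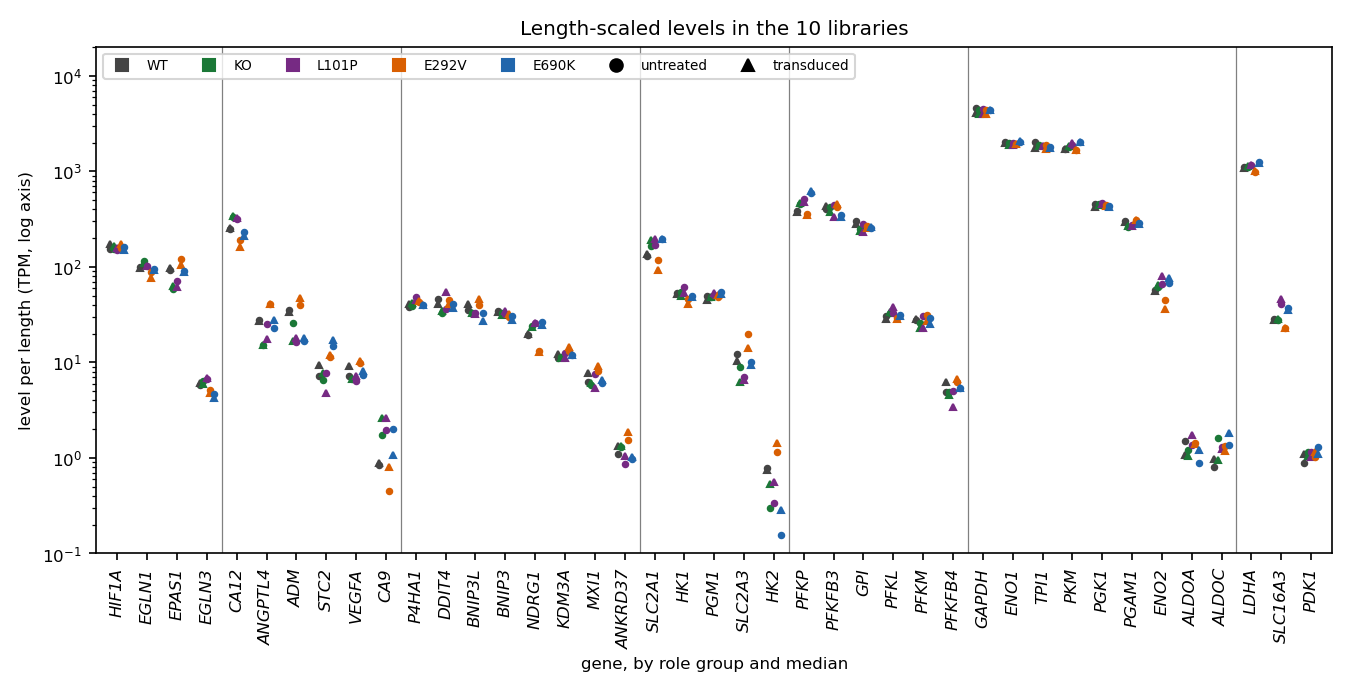
Length-scaled level (TPM, log axis) of the 41 genes in the 10 libraries, in blocks by role and ordered within a block by median. Colour marks the line, circles are untreated and triangles transduced libraries. GAPDH, ENO1, TPI1, PKM and LDHA lie near or above 1000 TPM in tight groups, whereas HK2 lies at 0.155 to 1.43 TPM.

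The series title sets type 1 against type 2 variants, and the labels do not say which variant is which. As background, L101P is usually counted among the misfolded, type 1 variants, and E292V and E690K among the type 2 variants that reach lamellar bodies with reduced function. In L101P against the mean of E292V and E690K, 6 of the 41 genes were higher (3.75% of all genes tested were) and 6 were lower (2.04%). The higher ones were CA12 at 0.72 ± 0.07 (adjusted p = 0.000505), SLC16A3 at 0.60 ± 0.07 (adjusted p = 0.00115), NDRG1 at 0.51 ± 0.06 (adjusted p = 0.00142), EGLN3 at 0.54 ± 0.10 (adjusted p = 0.00914), ENO2 at 0.44 ± 0.10 (adjusted p = 0.0243) and HK1 at 0.33 ± 0.06 (adjusted p = 0.0101) on the log2 scale. The lower ones were STC2 at -1.13 ± 0.17 (adjusted p = 0.00331), SLC2A3 at -0.90 ± 0.12 (adjusted p = 0.00181), ADM at -0.67 ± 0.15 (adjusted p = 0.0243), EPAS1 at -0.59 ± 0.08 (adjusted p = 0.00155), ANGPTL4 at -0.59 ± 0.13 (adjusted p = 0.0232) and VEGFA at -0.37 ± 0.09 (adjusted p = 0.0249). The 2 type 2 lines stood apart from each other in many of these genes: NDRG1 was 35.7 and 35.2 CPM in E292V but 74.1 and 70.7 CPM in E690K, and ADM was 29.7 and 35.9 against 12.9 and 14.4 CPM. Without the E292V pair, L101P against E690K alone left 3 of the 12 called, and the values of NDRG1 and ENO2 turned to -0.0097 and -0.0072. Without the E690K pair, L101P against E292V alone called 20 of the 41. Over all genes tested the calls in this contrast numbered 1041, 136 without the E292V pair and 1981 without the E690K pair. The epithelial markers KRT8, KRT18 and KRT19 were also higher in this contrast (0.54, 0.51 and 1.21) and the fibroblast marker COL1A1 lower (-1.4). The epithelial markers EPCAM and CDH1 were not called. EPCAM stood at 10.4 and 13.5 CPM in L101P, against 15.4 and 13.2 in E292V and 16.0 and 13.7 in E690K. The part of these markers in the contrast was not tested.

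The vector was tested with the 5 lines as replicates. None of the 41 genes was called, nor any of the 17978 (0%). At an unadjusted p under 0.05, edgeR gave 2 of the 41 higher and 3 lower, against 6.88% of all genes, and DESeq2 called 0 of the 41 and 113 of all genes. The smallest adjusted p of the 41 was 0.445, for SLC2A3 at a log2 change of -0.28. As labelled, SLC2A3 was lower in the transduced library of each of the 5 lines. PFKM was lower in 4 and equal in WT at 58.5 CPM in both libraries. VEGFA (0.16) and ANKRD37 were higher in each of the 5, VEGFA by only 0.0083 on the log2 scale in the KO-labelled line. With the KO labels exchanged, the KO pair would go the other way for each of these genes, SLC2A3 (-0.54 as labelled) among them. The median absolute change of the 41 genes was 0.04 on the log2 scale, against 0.08 for all genes tested, without matching by level. EGFP stood at 69.7 and 150.9 CPM in the WT pair, 1.01 and 36.9 in L101P, 20.2 and 66.0 in E292V, and 16.5 and 18.5 in E690K. It was thus higher in the transduced library of these 4 lines, but above 15 CPM in the untreated library of 3 of them, and in the KO pair it goes against the labels.

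**Figure D5:**
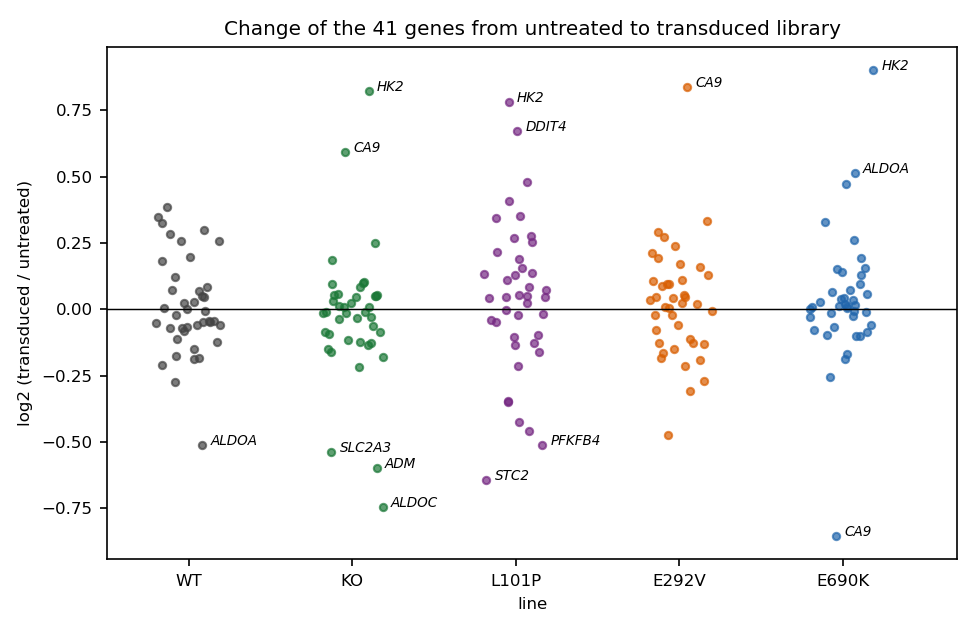
Log2 ratio of transduced to untreated level (vertical axis) of each of the 41 genes in each line (horizontal axis), with changes beyond 0.5 named. Points are spread sideways at random. Most points lie within 0.25 of 0, and the named points are genes under 3 CPM (HK2, CA9, ALDOA, ALDOC), genes of the KO-labelled pair (SLC2A3, ADM) or genes of the L101P pair (STC2, DDIT4, PFKFB4).

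The change within 1 pair was set against that of the other 4. In L101P, 1 gene rose more than in the others (1.12% of all genes tested did) and 1 fell (0.384%). DDIT4, which restrains growth signalling under stress, stood at 27.3 and 24.0 CPM in WT, 19.7 and 20.4 in the KO-labelled line, 20.7 and 32.9 in L101P, 25.8 and 23.7 in E292V, and 24.0 and 22.4 in E690K. It rose within the L101P pair by 0.67 on the log2 scale, and its change differed from that of the other lines by 0.76 ± 0.15 (adjusted p = 0.0175). STC2 fell by 0.64 within the L101P pair and, as labelled, was higher in the transduced library of each other line. The difference in change was -0.89 ± 0.18 (adjusted p = 0.0152). Both calls were lost without the WT pair (adjusted p = 0.0787 and 0.0599) and without the E690K pair (0.0529 and 0.0588), and STC2 also with the KO labels exchanged (0.148). The epithelial markers KRT8, KRT18 and KRT19 differed in the same way within this pair, by 0.62, 0.62 and 1.17 on the log2 scale, and the fibroblast marker COL1A1 by -1.16. Their part in the result was not tested. The transduced L101P library was also the deepest, at 96811421 counts, and the untreated one the shallowest, at 59430095.

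For the other 4 lines the same test called none of the 41. Of all genes tested, 0 were called for WT (0%), 1 for the KO-labelled line (0.00556%), 0 for E292V (0%) and 0 for E690K (0%). At an unadjusted p under 0.05 the 41 genes numbered 0 for WT, 1 for the KO-labelled line, 2 for E292V and 1 for E690K. Of all genes tested, 3.32%, 1.75%, 3.88% and 2.55% passed in the same order. DESeq2 called 0 of the 41 in each of the 4, and 0, 3, 11 and 0 of all genes.

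Other genes of the pathway were taken from lists. Of 15 other regulators of HIF, 14 were tested, among them ARNT, VHL, EGLN2 and HIF1AN, and edgeR called 0 in each comparison. At an unadjusted p under 0.05, 3 of the 14 differed among the lines. The lowest adjusted p was that of the oxygen sensor EGLN2 (0.0505), with a log2 fold change of -0.53 ± 0.14 (adjusted p = 0.09) in the KO-labelled line. Of 32 other hypoxia targets, 8 differed among the lines (13.0% of all genes tested did). HMOX1, which degrades heme, was lower than WT in the KO-labelled line, L101P and E690K, with log2 fold changes of -0.93, -0.98 and -0.88 (adjusted p = 0.0354, 0.0179 and 0.0232), at 391.0 and 382 CPM in WT and 155 to 256 CPM in those 6 libraries. HILPDA, a lipid droplet protein, was lower in L101P (-0.48) and E690K (-0.70). IGFBP3, which binds insulin-like growth factors, was higher in L101P (1.22) and stood at 69.4 CPM in its untreated and 193 CPM in its transduced library. CXCR4 was lower in E690K (adjusted p = 0.0434), with 0 and 2 counts there against 40 and 38 in WT, where a count of 0 allows up to 3. The list counted 0 higher and 1 lower in the KO-labelled line, 2 and 2 in L101P, 1 and 3 in E690K, and 4 and 1 in L101P against the other variants. In E292V edgeR called 0 of the list, with 7 at an unadjusted p under 0.05, where 10.3% of all genes tested passed. For the vector effect it called 0, with 5 at that p, against 6.88% of all genes tested.

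Of 37 other glycolysis and pyruvate genes 29 were tested, and 7 differed among the lines. SLC16A7 (MCT2), a lactate and pyruvate carrier, had 0 counts in both L101P libraries against 28 and 98 in WT (adjusted p = 0.00538). In E292V it had 347 and 606, higher than WT by 3.04 ± 0.55 on the log2 scale (adjusted p = 0.0236). Lower in E292V were PDHA1 (-0.39), a subunit of pyruvate dehydrogenase, and the kinases that switch that enzyme off, PDK3 (-0.83) and PDK4 (-0.86). PDHA1 and PDK3 lie on the X chromosome between 2.8 and 57 Mb, where 190 of 211 tested genes were lower in E292V than in WT, with a median of -0.47 on the log2 scale. The list counted 1 higher and 3 lower in E292V, 1 and 1 in E690K, 0 and 1 in L101P, 0 and 0 in the KO-labelled line, and 4 and 2 in L101P against the other variants. Of 8 pentose phosphate genes, H6PD alone was called, among the lines and in L101P against the other variants (0.43).

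Of 15 genes of S phase and mitosis, 2 were higher than WT in L101P (MKI67 and TOP2A) and 4 in E690K (MKI67, TOP2A, BUB1 and PLK1). SLC2A1, PFKP, NDRG1 and SLC16A3 were called higher in the same lines. PFKP was also called higher in the KO-labelled line, where 0 of the 15 were called. There 6 of the 15 had an unadjusted p under 0.05, against 14.1% of all genes tested. PCNA and MCM2 to MCM7 were not called in any comparison; MCM3, for example, stood at 175 and 174 CPM in WT and 158 and 162 in E690K. The summed level of the 15 was 4193 and 4318 CPM in WT, 4329 and 4380 in E292V, 4699 and 4924 in the KO-labelled line, 4794 and 4947 in L101P and 5054 and 5010 in E690K. Their part in the results above was not tested.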

How the data were processed

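Total-RNA libraries were made by the submitters from lifted A549 cells, per the labels' protocols. Values are whole-number counts per gene as deposited by the authors in 1 table, and the submitters' processing notes name featureCounts, Subread, edgeR, limma and the build GRCh38, with no versions used here. Strand use and annotation are not given in the sources used here. No column was left unused (0), and 0 rows named no gene. Of counts from 1 to 10, 81.4% were even, against 51.5% above 1000, so mates appear to have been counted separately. Wilson intervals at 95% therefore used the count divided by 2, and they cover counting error only, since reads carry no molecular identifiers.

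Names were matched to GENCODE release 29 (33075 of 33551 rows, 98.6%) for coordinates and exon lengths, from which per-length levels (TPM) were computed here.

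Counts were fitted with edgeR 4.0.16 in R 4.3.3 (TMM, factors 0.972 to 1.03; filterByExpr, 17978 genes, all 41 among them; additive line and vector; quasi-likelihood test; Benjamini-Hochberg adjustment over all genes; 4 residual degrees of freedom, 3 with a vector by line term). The common dispersion was 0.0168. The standard error is the log2 fold change over the square root of F. Libraries of a line pair by the cell line. As a check, deviations from the treatment means correlated at 0.222 (L101P) to 0.542 (E292V) over genes within pairs. The scripts were tested on simulated data.

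The 41 genes and the lists were chosen with earlier results of these data known. Every gene called in a comparison, the HIF subunits and oxygen sensors, and the highest gene per length (by median over libraries) of each of 7 role groups are given in every library. The others are given by range. Of the other lists, called genes are counted and at most 4 named. Alternatives were DESeq2 1.42.0 and its size factors, no filter, at least 10 counts in every library, counts divided by 2, exchanged KO labels, no block, and each line pair left out.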

Additional observations from a re-analysis of the deposited data

Results flagged for a closer look

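In 3 of the 41 sets of 5 changes from untreated to transduced library, 1 line stood far from the other 4, with a gap of over 0.71 of the range. About 1 in 20 such sets are picked out by chance. In each of the 3 the line was L101P: DDIT4 changed by 0.67 on the log2 scale, STC2 by -0.64 and SLC16A3 by 0.25. In a test of the difference itself (edgeR, change in L101P against the other 4 lines), STC2 came to -0.89 and DDIT4 to 0.76, with adjusted p = 0.0152 and 0.0175. SLC16A3 was not called in that test.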

How the results depend on the processing

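The number of the 41 genes called changed with the alternatives, as did the number over all genes. In the KO-labelled line against WT, where 4 were called, the number was 8 with no filter on low counts and 8 with DESeq2, and 2 to 10 with a line pair left out; over all genes the numbers were 323, 982, 744 and 147 to 1124. In E292V, where 2 were called, it was 10 with no filter, 9 with DESeq2 and 2 to 10 with a pair left out; over all genes 189, 662, 432 and 57 to 689. With the KO labels exchanged it was 5 in place of 8 in L101P, and over all genes 367 in place of 709. For the change within the L101P pair it was then 1 in place of 2, and over all genes 177 in place of 270. That change had 0 to 2 called with a pair left out, and 97 to 531 over all genes. With a pair left out, 3 to 20 of the 41 were called in L101P against the other variants (12 with all pairs) and 10 to 22 among the lines (18). Over all genes the numbers were 136 to 1981 (1041 with all pairs) and 931 to 3730 (2337). Leaving out any pair removes residual degrees of freedom. Over all genes, the number among the lines rose to 3730 without the L101P pair and fell without each other pair. The cause was not tested. Of 54 called values, all kept sign and call with DESeq2, with its size factors, with no filter and with counts divided by 2. A minimum of 10 counts in every library lost 1, and exchanged KO labels lost 9. Without the E292V pair 17 of 52 were lost, and NDRG1 and ENO2 in L101P against E690K alone turned to -0.0097 and -0.0072, while without the E690K pair they were 1.02 and 0.88. Without the E690K, KO and WT pairs 10 of 46, 5 of 50 and 2 of 32 were lost, and without the L101P pair 0 of 32. With no replicate block (line left out of the fit) 0 of the 41 were called for the vector effect, as with it. Over all genes, edgeR called 0 for the vector effect, 237 with no filter and 133 without the L101P pair.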
